A study of Mus musculus with 6 samples.

Results

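The 10 genes studied encode the subunits of 3 protein complexes that carry the TNF receptor signal to NF-κB, and their mRNA was followed in mouse L929 fibroblasts treated with TNF-α and actinomycin D. The members were the rows of the deposited gene count table whose symbol was Rbck1, Rnf31 or Sharpin (the linear ubiquitin chain assembly complex, LUBAC), Map3k7, Tab1, Tab2 or Tab3 (the TAK1 complex), or Chuk, Ikbkb or Ikbkg (the IKK complex). Each symbol matched 1 row, which gave 10 members of 54532 genes in the table. The treated group was 3 libraries of wild-type L929 cells kept for 12 h with both TNF-α (10 ng/ml) and actinomycin D (1 µg/ml), and the control group was 3 libraries of wild-type L929 cells. L929 is an established mouse fibroblast line, so the study used 1 line. Control and treated samples carry 1 and the same treatment protocol in the labels, so the sample titles were used to assign groups. No group received either agent alone, so the contribution of TNF-α and that of actinomycin D, an inhibitor of transcription, cannot be told apart.

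Ligand binding by the TNF receptor Tnfrsf1a recruits adaptors and ubiquitin ligases that build mixed ubiquitin chains on the receptor complex. LUBAC adds linear chains, in which ubiquitin units are joined head to tail; Rnf31 (HOIP) carries the catalytic centre, and Rbck1 (HOIL-1L) and Sharpin hold the complex together and stabilise it. The kinase TAK1 (Map3k7) is activated with its partner Tab1 and with Tab2 or Tab3, which bind lysine-linked chains, and the IKK complex is held on linear chains by its regulatory subunit NEMO (Ikbkg) so that TAK1 can phosphorylate its kinase subunits IKKα (Chuk) and IKKβ (Ikbkb). In fibroblasts, active IKK releases NF-κB from its inhibitors and restrains death signalling from the same receptor.

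Library totals lay between 16056207 and 18036322 counts. Of 13290 genes with enough counts to test, 9941 (74.8%) passed an adjusted p of 0.05 in edgeR's quasi-likelihood test, 4604 (34.6%) being higher and 5337 (40.2%) lower in treated cells. Levels are given as CPM, counts relative to a library total that was adjusted by TMM, a normalization that sets most genes near no change; its factors were 0.640 to 0.797 in treated libraries and 1.34 to 1.53 in control libraries, without overlap. On other scalings the split of called genes moved. Of called genes, 46.3% were higher on TMM, 22.3% with library size alone and 2.15% with ribosomal protein genes held equal. The median over all genes shifted from TMM by -1.04 with library size alone and by -2.39 with ribosomal protein genes held equal, on the log2 scale. Changes are therefore also set beside that median or given as ratios between members within a library, and only the ratios are unaltered by scaling. Whether the 3 libraries of a group stem from separate cultures is not stated in the labels, and the p-values thus reflect only library-to-library spread, possibly of technical origin. Fibroblast markers were high in both groups as a sum, at 25338 to 28990 CPM in treated libraries and 7690 to 9964 CPM in control libraries. Vim, Col1a2 and P4hb were its largest parts. Next came Sparc in treated libraries (2859 to 3393 CPM) and Fn1 in control libraries (791 to 990 CPM). Thy1 was near 0, and the receptors Pdgfra (4.95 to 6.98 CPM in treated and 16.4 to 20.1 CPM in control libraries) and Pdgfrb (38.3 to 40.4 CPM in treated and 66.7 to 84.5 CPM in control libraries) were lower in all treated libraries. Among markers of other cells, 4 of 7 macrophage genes were measurable (summed level 54.9 to 70.3 CPM in treated libraries and 7.15 to 9.52 CPM in control libraries, with Itgam at 0 and Ptprc and Adgre1 at or near 0), 1 of 6 epithelial genes was measurable (9.85 to 12.8 CPM in treated libraries and 2.74 to 3.99 CPM in control libraries, with Epcam and Krt5 at 0), and none of the 7 lymphocyte or 5 endothelial genes was; their part in the results was not tested.

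All 10 members had enough counts to test. On the TMM scale 2 members rose in treated cells, 5 fell and 3 did not pass the test, so 7 of 10 were called beside 74.8% of all tested genes. The share higher (2 of 10) stood beside 34.6% of all genes and the share lower (5 of 10) beside 40.2%. For 8 of 10 members the libraries of the 2 groups did not overlap, beside 77.9% of tested genes. The median log2 fold change was -0.44 over the members and -0.18 over all tested genes. That order turned with the length trend removed, at 0.43 over the members and 0.076 over all genes with the deposited length, and 0.29 and 0.038 with mRNA length; with a stricter filter on low counts, which left 9 members, it was -0.21 over both. The share called was therefore near that of all genes. The members ranged from a log2 fold change of -3.10 in Tab1 to 1.30 in Rbck1, beside quartiles of -1.55 and 1.17 over all tested genes.

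**Figure D1:**
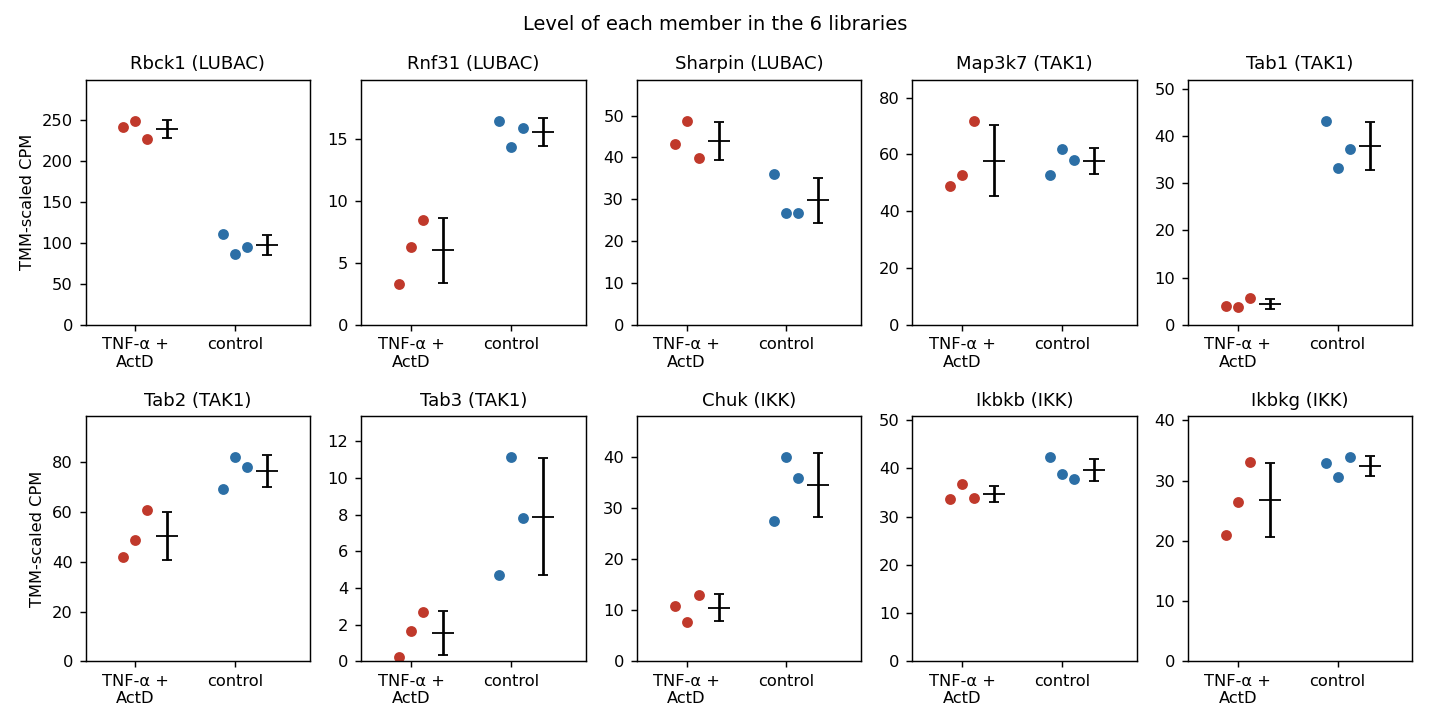
TMM-scaled CPM (linear axis from 0, 1 panel per gene with its own range) of the 10 members in each of the 3 treated and 3 control libraries. Points are libraries and the bar beside them is the group mean ± SD. On this scale Rbck1 and Sharpin lie higher in all treated libraries, which does not hold for either with ribosomal protein genes held equal; Rnf31, Tab1, Tab2, Tab3 and Chuk lie lower in all of them, and the groups overlap for Map3k7 and Ikbkg.

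Several members belong to families, so the exact sequence shared between their representative mRNAs was examined first. Across the 45 pairs of representative mRNAs the longest exact run shared by both mRNAs was between 11 and 17 bases, with a median of 12. Chuk and Ikbkb, which encode related kinases, shared at most 16 bases, and Tab2 and Tab3, which encode related adaptors, shared at most 15. These runs are shown with 10 bases on each side, from the GRCm38 genome and GENCODE transcripts. They are written 5′ to 3′ on the coding strand, with the shared run in capitals. Each run lies in coding sequence, and each stretch shown crosses an exon junction, so the coordinates include the intron.
Chuk, exons 2 to 3 of 21, chr19:44101846-44103687 (minus strand): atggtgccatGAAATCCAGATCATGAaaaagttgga
Ikbkb, exons 3 to 4 of 22, chr8:22693927-22695192 (minus strand): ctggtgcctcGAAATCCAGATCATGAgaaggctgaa
Tab2, exons 2 to 3 of 7, chr10:7920603-7924707 (minus strand): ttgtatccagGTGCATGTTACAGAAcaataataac
Tab3, exons 3 to 4 of 9, chrX:85609562-85613982 (plus strand): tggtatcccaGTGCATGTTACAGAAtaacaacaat
No pair of these representative mRNAs shared a longer exact run than 17 bases, so a longer read without mismatches can tell them apart. Other transcripts of the members, other genes and inexact matches were not compared, so wrong assignment of reads was not tested. Overlapping neighbours were a different matter for 2 members: Rnf31 shares 123 exon bases with Irf9 on the same strand, and Ikbkg shares 418 exon bases with G6pdx on the opposite strand. Summed counts were 315 in treated and 811 in control libraries for Irf9, and 7523 in treated and 7243 in control libraries for G6pdx. How reads in shared bases were assigned, and whether counting took account of strand, is stated in no source used here, so the Rnf31 and Ikbkg counts are uncertain to the extent of those bases.

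In LUBAC the catalytic subunit fell and its partners rose on the TMM scale, although neither rise was called with library size alone or with ribosomal protein genes held equal. Rbck1 (ENSMUSG00000027466, chr2:152316334-152332653, minus strand, GRCm38), the HOIL-1L subunit, measured 241, 249.6 and 227 CPM in the 3 treated libraries, against 111, 86.7 and 95.3 CPM in the 3 control libraries. Every treated library lay far above every control library on this scale. The means were 239 ± 11.4 CPM in treated cells and 97.6 ± 12.2 CPM in control cells (SD, n = 3 each), a log2 fold change of 1.30 ± 0.15 (SE, edgeR adjusted p = 1.57e-05), which placed Rbck1 at the 77.1 percentile of all tested genes. In a bulk measurement such as this one, fewer cells of a type and less RNA per cell cannot be told apart. Unscaled, the Rbck1 counts were 2734, 2824 and 2976 in treated libraries and 2674, 2121 and 2411 in control libraries, so the groups did not overlap before scaling either, but the fold was far smaller. With library size alone the log2 fold change was 0.26 (edgeR adjusted p = 0.0636), and with ribosomal protein genes held equal it was -1.10, so the call of a rise rests on a scaling that sets most genes near no change.

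Sharpin (ENSMUSG00000022552, chr15:76347040-76351111, minus strand), the adaptor subunit named for its binding of Shank proteins, measured 43.2, 48.8 and 39.8 CPM in treated libraries, against 35.9, 26.7 and 26.6 CPM in control libraries. The lowest treated library was above the highest control library, by a small margin. This was a log2 fold change of 0.56 ± 0.18 (edgeR adjusted p = 0.0167). The call ended without treated replicate 2 (0.41, edgeR adjusted p = 0.0684), without control replicate 2 (0.46, adjusted p = 0.0807) or without control replicate 3 (0.45, adjusted p = 0.112). By library size alone Sharpin was lower in treated cells, at -0.48 (edgeR adjusted p = 0.0258), and with ribosomal protein genes held equal it was -1.84.

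Rnf31 (ENSMUSG00000047098, chr14:55591708-55603693, plus strand), the HOIP subunit that forms the linear bond, measured 3.27, 6.28 and 8.47 CPM in treated libraries, against 16.5, 14.3 and 15.8 CPM in control libraries. The groups did not overlap, and the treated libraries were spread over a wider relative range than the controls. These levels rest on 37, 71 and 111 counts in treated libraries and 398, 351 and 401 counts in control libraries. Rnf31 thus had a log2 fold change of -1.37 ± 0.31 (edgeR adjusted p = 0.00195), and was lower in treated cells under all 5 scalings tried.

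In the TAK1 complex the adaptors fell on the TMM scale while the kinase mRNA did not pass the test there. For Tab2 this direction turned in a fit with the length trend removed. Tab1 (ENSMUSG00000022414, chr15:80133127-80161707, plus strand), the subunit that activates TAK1 by binding its kinase domain, measured 3.89, 3.71 and 5.57 CPM in treated libraries, against 43.3, 33.2 and 37.3 CPM in control libraries. The gap between the groups was many times the spread within either. The log2 fold change was -3.10 ± 0.23 (edgeR adjusted p = 9.91e-07), an 8.59-fold lower level and the 5.69 percentile of all tested genes, and leaving out any 1 library kept it between -3.35 and -3.03.

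Tab2 (ENSMUSG00000015755, chr10:7905653-7956230, minus strand), a chain-binding adaptor, measured 41.9, 48.7 and 60.8 CPM in treated libraries, against 69.3, 81.9 and 78.2 CPM in control libraries, with no overlap. Its log2 fold change was -0.60 ± 0.17 (edgeR adjusted p = 0.00874), but it was 0.16 and not called (edgeR adjusted p = 0.311) once the trend of fold change with deposited gene length was removed, and 0.37 and called higher (edgeR adjusted p = 0.0175) with the trend on mRNA length removed. Tab3 (ENSMUSG00000035476, chrX:85574022-85634469, plus strand), the other chain-binding adaptor, was the least abundant member, with 0.265, 1.68 and 2.67 CPM in treated libraries, against 4.72, 11.1 and 7.82 CPM in control libraries. Treated replicate 1 was far below the other treated libraries and held only 3 counts; the treated libraries summed to 57 counts and the control libraries to 584. The log2 fold change was -2.33 ± 0.57 (edgeR adjusted p = 0.00359), and it was -1.96 without treated replicate 1 and -3.07 without treated replicate 3.

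Map3k7 (ENSMUSG00000028284, chr4:31964097-32023467, plus strand), the TAK1 kinase itself, measured 48.7, 52.7 and 71.9 CPM in treated libraries, against 52.7, 61.9 and 58.1 CPM in control libraries. The groups overlapped, with treated replicate 3 the highest of all 6 libraries. The log2 fold change was 0.01 ± 0.18 (edgeR adjusted p = 0.982), with a 95% interval from -0.39 to 0.40, and changes inside that interval were not detectable with these libraries. With library size alone it was -1.02 and called lower (edgeR adjusted p = 0.00618). With ribosomal protein genes held equal it was -2.36 and called lower too (edgeR adjusted p = 6.51e-04). Both values lay close to the shift of the median of all genes on the same scaling (-1.04 and -2.39). After removal of the trend of fold change with gene length the Map3k7 value was 0.80 and passed the test (edgeR adjusted p = 3.48e-04).

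In the IKK complex 1 kinase subunit fell on the TMM scale and the other members did not pass the test there. These other members were called lower with library size alone (Ikbkb -1.23, Ikbkg -1.29), as most tested genes were. They were also called lower with ribosomal protein genes held equal (Ikbkb -2.59, Ikbkg -2.62), again as most tested genes were. Chuk (ENSMUSG00000025199, chr19:44073335-44107480, minus strand), which encodes IKKα, the kinase also used by the non-canonical NF-κB pathway, measured 10.9, 7.69 and 13.1 CPM in treated libraries, against 27.6, 40.0 and 36.0 CPM in control libraries. The highest treated library was well under the lowest control library. For Chuk the log2 fold change was -1.71 ± 0.24 (edgeR adjusted p = 6.57e-05), and Chuk was lower under all 5 scalings.

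Ikbkb (ENSMUSG00000031537, chr8:22659212-22706589, minus strand), which encodes IKKβ, the main IκB kinase downstream of TNF, measured 33.6, 36.7 and 34.0 CPM in treated libraries, against 42.3, 38.8 and 37.9 CPM in control libraries. The groups did not overlap, but the log2 fold change of -0.19 ± 0.16 did not pass the test (edgeR adjusted p = 0.288, 95% interval -0.54 to 0.16). With the length trend removed it was 1.33, on a deposited length that is unusually long, and 0.57 on mRNA length (edgeR adjusted p = 0.00394). Ikbkg (ENSMUSG00000004221, chrX:74393290-74453854, plus strand), which encodes the chain-binding subunit NEMO, measured 20.9, 26.4 and 33.1 CPM in treated libraries, against 32.9, 30.6 and 33.9 CPM in control libraries. Treated replicate 3 lay among the controls and the other 2 below them. The log2 fold change was -0.27 ± 0.20 (edgeR adjusted p = 0.228, 95% interval -0.71 to 0.16), and without treated replicate 3 it was -0.49 and passed the test (edgeR adjusted p = 0.0216). With the length trend removed it was 0.70 in the other direction (edgeR adjusted p = 0.00207). By library size alone 9 of 10 members were called lower and none passed as higher in edgeR, where 1 had an unadjusted p under 0.05. Of all 13290 tested genes, 7924 were lower and 2276 higher on that scaling.

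A fit in which the trend of fold change on gene length was removed over all genes moved all 10 members upward. The median shift over all tested genes was upward too, at 0.30 on the log2 scale. Rbck1 was then 1.79, Sharpin 0.84, Rnf31 -0.68, Tab1 -3.00, Tab3 -1.53 and Chuk -1.12 on the log2 scale, each still passing edgeR's test in its direction. With mRNA length in place of the deposited length, the median shift over all tested genes was 0.46. Tab1 was then -2.62 and Chuk -0.99 and both calls held, while those of Tab3 (-1.05, edgeR adjusted p = 0.0663) and Sharpin (0.20, edgeR adjusted p = 0.218) ended. On that length Tab2 went over to a call of higher (0.37), and Map3k7 (1.25, edgeR adjusted p = 4.22e-06), Ikbkb (0.57) and Ikbkg (1.09, edgeR adjusted p = 7.78e-05) were called higher too. Without the filter on low counts the Sharpin call ended as well (0.40, edgeR adjusted p = 0.108).

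**Figure D2:**
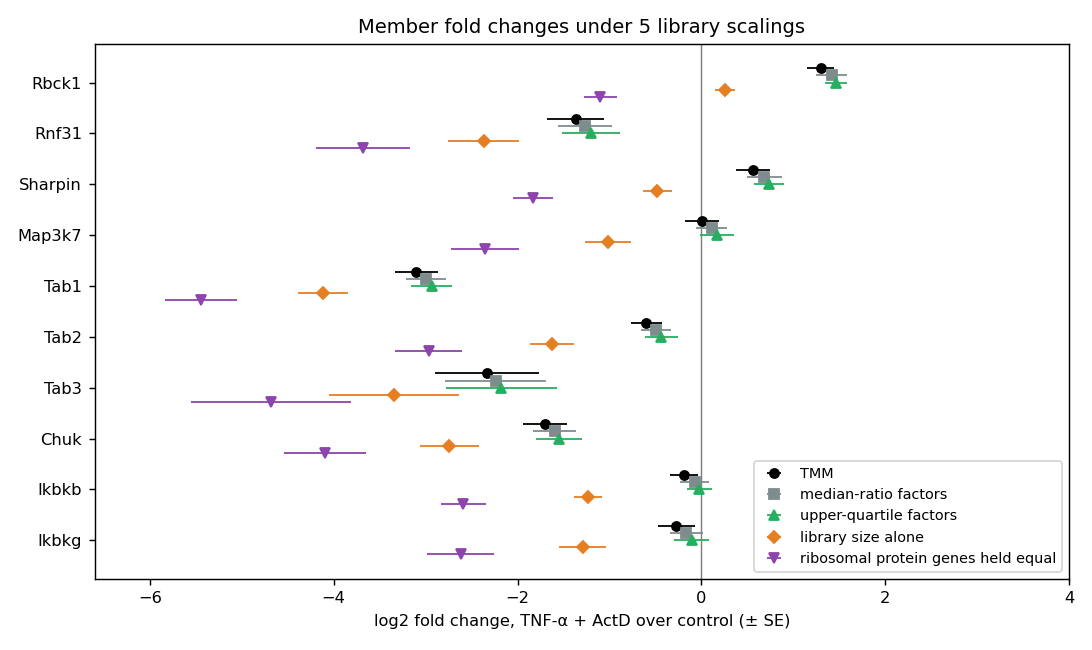
Log2 fold change (treated over control) of each member under 5 scalings of the same counts; each marker is 1 scaling, with its SE as a bar. Rnf31, Tab1, Tab2, Tab3 and Chuk stay below 0 throughout, whereas Rbck1 and Sharpin cross 0 when ribosomal protein genes are held equal, as Sharpin does with library size alone.

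Treated replicate 3 was the highest treated library for 7 members and replicate 2 for 3, while replicate 1 was the highest for none. Over all tested genes those shares were 40.7%, 25.8% and 33.3%. Replicate 3 also had the largest TMM factor of the treated libraries, 0.797, and the most genes with a count, 18849 against 15705 and 17688 in the other treated libraries. The part of these differences in the members' values was not tested.

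Ratios of counts per deposited gene length between members of a complex within a library do not depend on how libraries are scaled, and 12 such pairs were compared. The length divisor cancels in the difference between groups, but a trend of fold change with length does not. With 3 libraries a group, the exact two-sided permutation test over libraries cannot give a p below 0.1, which becomes 0.12 after adjustment over the 12 pairs. For 10 of 12 pairs the groups did not overlap, beside 73.9% of all 88305405 pairs of tested genes, and each of the 10 had that smallest p. None passes 0.05, and the differences below are described by their size and their standard error.

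In LUBAC the ratio of Rbck1 to Rnf31 was 53.0 in treated cells and 7.78 in control cells (geometric means of counts per length, n = 3 each), a 6.81-fold difference, or 2.77 ± 0.43 on the log2 scale (SE). The ratio of Rbck1 to Sharpin was 4.53 in treated cells and 2.73 in control cells, a difference of 0.73 ± 0.08 on the log2 scale. The ratio of Rnf31 to Sharpin was 0.0855 in treated cells and 0.351 in control cells, so the catalytic subunit was the one that dropped out of proportion to both partners. Rbck1 gained on Sharpin as well, by a smaller amount that still exceeded the spread between libraries.

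In the TAK1 complex the ratio of Map3k7 to Tab1 had log2 values of 2.70, 2.88 and 2.75 in treated libraries, against -0.65, -0.04 and -0.29 in control libraries. Per length, the kinase mRNA was thus several times more abundant than the Tab1 mRNA in every treated library and less abundant than it in every control library. The geometric means were 6.84 in treated cells and 0.797 in control cells, an 8.58-fold difference. The ratio of Map3k7 to Tab2 was 1.09 in treated cells and 0.720 in control cells, a difference of 0.60 ± 0.04 on the log2 scale. That is small, yet its standard error was the smallest of the 12 pairs. Ratios to Tab3 were wide: Map3k7 to Tab3 differed by 2.71 ± 0.87 and by 1.89 without treated replicate 1, and Tab2 to Tab3 by 2.11 ± 0.86 and by 1.30 without it. Tab1 and Tab3 could not be separated, with a difference of -0.39 ± 0.98 and overlapping groups (exact permutation p = 0.7).

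In the IKK complex Chuk lost ground to both partners. The ratio of Chuk to Ikbkb was 1.12 in treated cells and 3.23 in control cells, a difference of -1.53 ± 0.33 on the log2 scale; the ratios themselves, but not their difference, rest on the long deposited Ikbkb length described below. The ratio of Chuk to Ikbkg was 0.626 in treated cells and 1.68 in control cells, a difference of -1.42 ± 0.31. Ikbkb and Ikbkg kept a ratio that overlapped between the groups, with a difference of 0.11 ± 0.20 (exact permutation p = 0.6, adjusted p = 0.655).

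With the length trend removed, an alternative chosen for the ratios after seeing the data, 11 of 12 pairs kept their direction on both lengths. The difference for Ikbkb to Ikbkg was 0.63 on deposited length and -0.52 on mRNA length. That for Rnf31 to Sharpin was -1.52 on deposited length and -0.87 on mRNA length, and that for Map3k7 to Tab1 was 3.80 and 3.87 in the same order. The difference for Chuk to Ikbkb was -2.45 on deposited length, that for Tab1 to Tab2 was -3.16 there, and that for Chuk to Ikbkg was -2.08 on mRNA length. Rbck1 to Rnf31 differed by 2.12 and Tab2 to Tab3 by 1.42 on mRNA length, and Tab1 to Tab3 by -1.47 on deposited length and -1.57 on mRNA length.

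**Figure D3:**
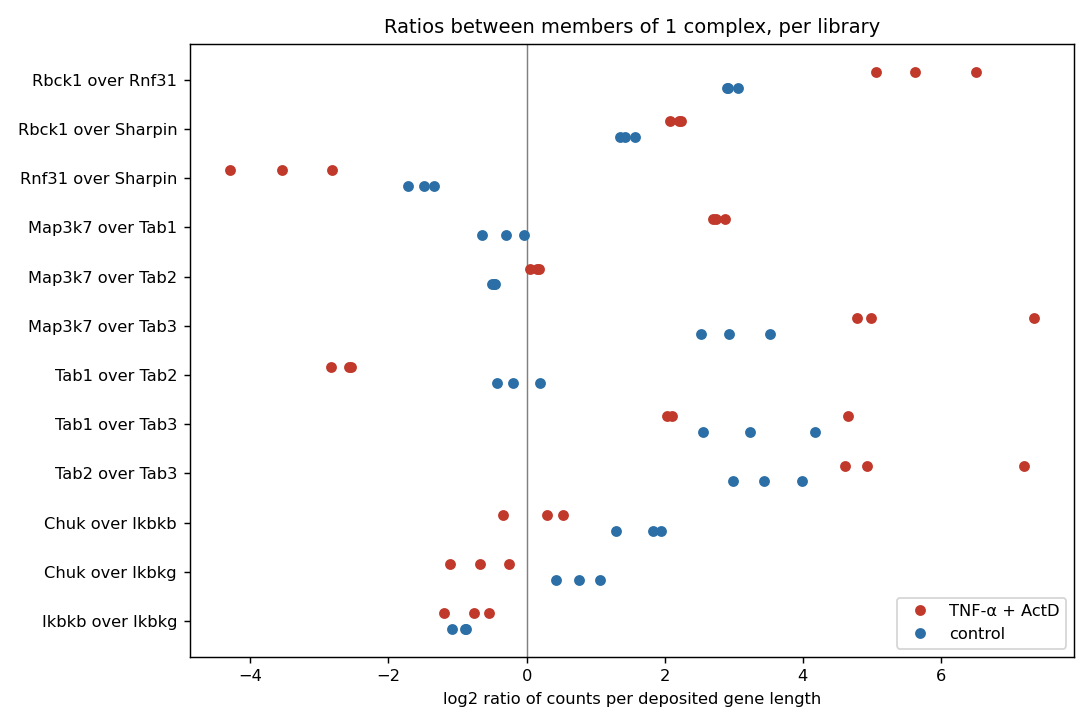
Log2 ratio of counts per deposited gene length for the 12 pairs of members within a complex; points are the 3 treated and 3 control libraries. The groups are apart for 10 pairs, most widely for Map3k7 over Tab1, and overlap for Tab1 over Tab3 and Ikbkb over Ikbkg.

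To compare levels between genes, CPM was divided by length, and the length used mattered most for Ikbkb. The deposited gene length equalled the union of all annotated exons for all 10 members. For Ikbkb this union is 19078 bases, 5.33 times its 3580-base representative mRNA, and 7 of its 14 annotated transcripts are of the retained intron type; that ratio exceeds the one of 99.1% of protein-coding genes, whose median is 1.14. Levels are therefore given per kb of the representative mRNA, with the deposited length as the other setting.

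Rbck1 had the highest level per kb of all members in both groups, at 100.4 ± 4.77 CPM per kb in treated cells and 40.9 ± 5.10 CPM per kb in control cells, apart from its nearest neighbour in every library. In treated cells the order below it was Sharpin, Tab2, Map3k7, Ikbkb, Ikbkg, Chuk, Rnf31, Tab1 and Tab3. There, the library ranges of Tab2 and Map3k7, Map3k7 and Ikbkb, Ikbkg and Chuk, Chuk and Rnf31, and Rnf31 and Tab1 overlapped. Within every treated library, however, Tab2 lay above Map3k7 and Chuk above Rnf31, while the order of the other neighbours named here varied. In control cells the order below Rbck1 was Tab2, Sharpin, Tab1, Ikbkb, Map3k7, Chuk, Ikbkg, Rnf31 and Tab3. There, the library ranges of Tab2 and Sharpin, the run Tab1, Ikbkb, Map3k7 and Chuk taken neighbour by neighbour, and Ikbkg and Rnf31 overlapped. In every control library Tab1 lay above Ikbkb, Ikbkb above Map3k7 and Ikbkg above Rnf31, in part by small margins. Tab2 and Sharpin, and Map3k7 and Chuk, changed order between libraries. Tab1 held position 9 in treated cells, at 1.48 ± 0.35 CPM per kb, and position 4 in control cells, at 12.8 ± 1.70 CPM per kb. With the deposited length Ikbkb dropped to 1.82 ± 0.09 CPM per kb in treated cells and 2.08 ± 0.12 CPM per kb in control cells, against 9.71 ± 0.47 and 11.1 ± 0.65 CPM per kb of mRNA in the same groups.

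**Figure D4:**
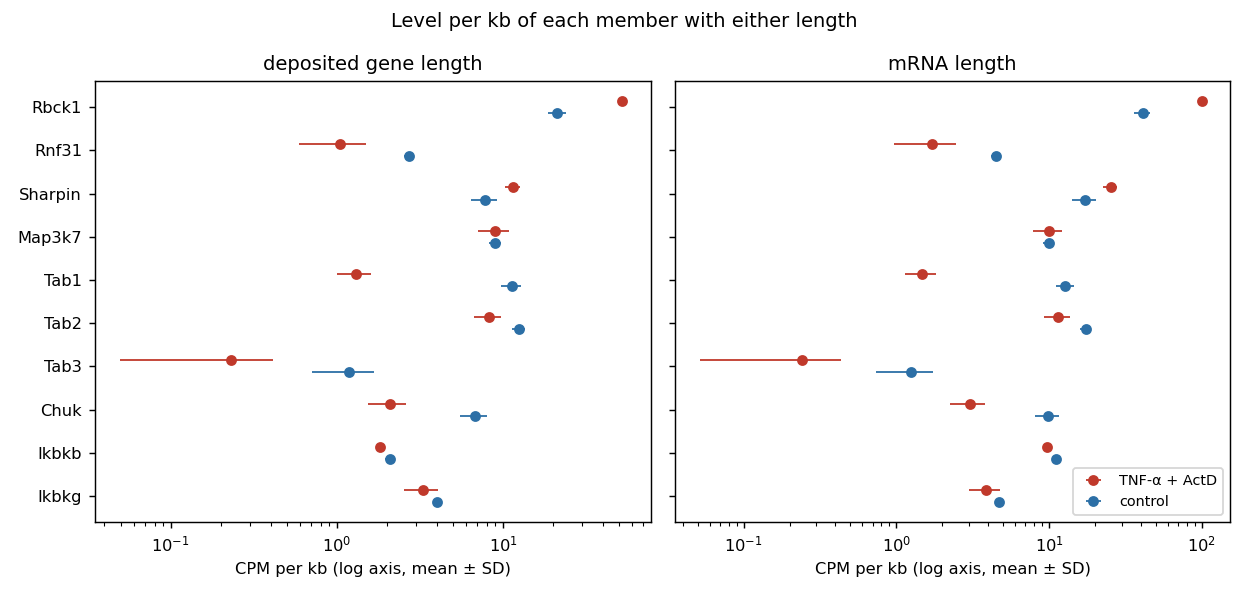
Level of each member in TMM-scaled CPM per kb (log axis), with the deposited gene length in 1 panel and the representative mRNA length in the other; points are the means of treated and control libraries and bars are the SD (n = 3 each). Rbck1 is the highest in both groups and Tab3 the lowest with either length, and Ikbkb moves most between the panels.

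The make-up of each complex at the mRNA level follows from these levels as the percentage of the complex's summed CPM per kb, which no scaling of libraries alters. Rbck1 made up 78.8% ± 0.96 of the LUBAC mRNA in treated cells and 65.5% ± 1.13 in control cells, Sharpin 19.8% ± 0.97 in treated cells and 27.3% ± 1.59 in control cells, and Rnf31 1.36% ± 0.64 in treated cells and 7.18% ± 0.53 in control cells (SD, n = 3 each). Of the TAK1 complex, Map3k7 made up 43.0% ± 0.94 in treated cells and 24.0% ± 1.32 in control cells, and Tab1 6.36% ± 0.54 in treated cells and 30.9% ± 4.93 in control cells. Tab2 was the largest adaptor in both, at 49.7% ± 1.33 in treated cells and 42.1% ± 2.50 in control cells. With the deposited length Tab2 and Tab1 overlapped in control cells, at 36.7% ± 2.32 and 33.4% ± 5.19, and Tab1 was the larger in control replicate 1. Of the IKK complex, Ikbkb made up 58.7% ± 5.36 in treated cells and 43.3% ± 4.32 in control cells, Chuk 18.1% ± 4.0 in treated cells and 38.3% ± 5.47 in control cells, and Ikbkg 23.2% ± 3.58 in treated cells and 18.3% ± 1.56 in control cells. With the deposited length Chuk still held less of the complex in treated cells, 28.7% ± 5.48 against 52.5% ± 5.65 in control cells, while Ikbkb was then 25.7% ± 4.02 in treated cells, where it overlapped with Chuk, and 16.3% ± 2.32 in control cells, where it was the smallest share in every library.

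Sequence features that the choice of members did not use were read from the same annotation. The 3′ UTR ran from 108 bases in Rnf31 to 5419 bases in Ikbkg, beside a median of 911 over 19108 genes. The pentamer ATTTA, the core of AU-rich elements that bind mRNA decay factors, was in 6 of 10 members and in 65.8% of those genes. It occurred 14 times in Ikbkg, 7 times in Chuk and in Map3k7, 5 times in Tab2 and in Tab3 and 1 time in Ikbkb, and was in none of the LUBAC members nor in Tab1. Per kb of 3′ UTR, Chuk had the most, 5.95, followed by Tab2 with 2.81 and Ikbkg with 2.58. No relation to the fold changes was tested. The nonamer TTATTTATT was found in Ikbkg alone among the members, as 3 overlapping matches, and in 7.43% of genes. The first of them is shown with its flanks, plus strand, with the nonamer in capitals.
Ikbkg, exon 11 of 11, chrX:74452552-74452581 (plus strand, GRCm38): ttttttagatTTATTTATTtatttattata

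RefSeq start sites (GRCm38.p6) gave 12 promoter windows, from 250 bases before to 50 after the start, for 7 members: Rbck1, Rnf31, Map3k7, Tab2, Tab3, Chuk and Ikbkg. They were searched on both strands for the kappaB motif, the 10-letter consensus bound by NF-κB. It was in 1 of the 12 windows, beside 4.51% of 32851 windows of the same length. That window belongs to Map3k7, whose mRNA did not pass the test on the TMM scale, and the match begins at position -92 from the start site. It is shown with the motif in capitals.
Map3k7, chr4:31963857-31964156 (plus strand, GRCm38.p6): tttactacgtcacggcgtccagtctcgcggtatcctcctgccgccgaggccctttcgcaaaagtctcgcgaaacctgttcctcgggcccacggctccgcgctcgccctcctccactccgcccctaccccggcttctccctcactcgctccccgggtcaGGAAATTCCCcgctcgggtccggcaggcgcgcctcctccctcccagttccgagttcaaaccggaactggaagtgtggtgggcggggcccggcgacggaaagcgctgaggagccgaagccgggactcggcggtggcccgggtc
A match to the motif is a description of these letters, not a measured binding site, and the windows without one say nothing about binding elsewhere.

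The genes that work with the 3 complexes were followed in 5 lists, whose counts of calls on TMM stand beside 34.6% higher and 40.2% lower among all tested genes. Among the enzymes that charge, remove or read linear ubiquitin, 1 of 12 tested genes rose, 9 fell and 2 did not pass the test, with a median log2 fold change of -1.19 beside -0.18 for all tested genes. Ube2l3, an E2 enzyme that hands ubiquitin to Rnf31, averaged 156 ± 24.5 CPM in treated cells and 70.3 ± 6.06 CPM in control cells, a log2 fold change of 1.15 ± 0.16 (edgeR adjusted p = 6.97e-05) that was not called by library size alone. Otulin, the deubiquitinase that cuts linear chains, averaged 11.3 ± 2.78 CPM in treated cells and 54.8 ± 5.64 CPM in control cells, a log2 fold change of -2.28 ± 0.21. Spata2, which bridges the deubiquitinase Cyld to LUBAC, averaged 7.03 ± 2.46 CPM in treated cells and 47.1 ± 5.66 CPM in control cells, a log2 fold change of -2.74 ± 0.26. Tnip3 had no count.

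Among the receptor-proximal partners of TAK1, 1 of 10 tested genes rose, 6 fell and 3 did not pass the test, with a median of -1.32. Ube2n, the E2 enzyme that builds the chains read by Tab2 and Tab3, averaged 178 ± 11.4 CPM in treated cells and 132 ± 4.38 CPM in control cells, a log2 fold change of 0.43 ± 0.14 (edgeR adjusted p = 0.0141). The Ube2n call was lost without treated replicate 1 (0.29), without control replicate 2 (0.37) or without control replicate 3 (0.40), and Ube2n was called lower by library size alone (-0.61). Traf5, a receptor adaptor, averaged 0.575 ± 0.50 CPM in treated cells and 5.20 ± 1.22 CPM in control cells, a log2 fold change of -3.14 ± 0.62. Tnfrsf1a, the receptor at the head of the pathway, had the largest fall of the list, at -5.33 ± 0.25 on the log2 scale. Birc3, a ubiquitin ligase of the same receptor complex, had too few counts to test, 34 in treated and 19 in control libraries.

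Another list held the phosphatases of TAK1 and the kinases downstream of it, directly or not, other than IKK (TAK1 target genes below). In it, 1 of 12 genes rose, 10 fell and 1 did not pass the test, with a median of -1.33. Mapk9, a stress-activated JNK kinase, averaged 58.2 ± 3.18 CPM in treated cells and 38.5 ± 0.50 CPM in control cells, a log2 fold change of 0.60 ± 0.15 (edgeR adjusted p = 0.00358), but was called lower by library size alone (-0.45) and was not called without the filter on low counts (0.44, edgeR adjusted p = 0.063). Mapk14, a stress-activated kinase of the p38 family, averaged 13.7 ± 5.05 CPM in treated cells and 78.2 ± 5.56 CPM in control cells, a log2 fold change of -2.51 ± 0.25. Ppm1b, a phosphatase that removes activating phosphates from TAK1, averaged 12.5 ± 2.14 CPM in treated cells and 57.4 ± 2.10 CPM in control cells, a log2 fold change of -2.19 ± 0.18.

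Among partners and substrates of IKK, 5 of 13 genes rose, 5 fell and 3 did not pass the test on TMM, with a median of -0.25. With library size alone 1 was higher and 8 were lower, and with ribosomal protein genes held equal 12 of 13 were lower. Of all 13290 tested genes, 7924 were lower with library size alone and 10955 with ribosomal protein genes held equal. Cdc37, the co-chaperone that loads IKK kinases onto their chaperone, averaged 670 ± 110 CPM in treated cells and 214 ± 33.9 CPM in control cells, a log2 fold change of 1.64 ± 0.19 (edgeR adjusted p = 1.35e-05). Nfkbib, which encodes the inhibitor IκBβ, averaged 91.8 ± 12.7 CPM in treated cells and 38.9 ± 7.51 CPM in control cells, a log2 fold change of 1.24 ± 0.19 that was not called by library size alone. On the lower side, Erc1, an IKK regulatory partner, had a log2 fold change of -3.25 ± 0.25, and Nfkb1, which encodes an NF-κB precursor that IKK phosphorylates, averaged 17.2 ± 3.79 CPM in treated cells and 84.5 ± 7.30 CPM in control cells (-2.29 ± 0.19). Leaving out 1 library moved the number of higher genes in this list between 3 and 5.

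Among the IKK-related and NF-κB-inducing kinases and their adaptors, none of 7 genes rose in edgeR, 5 fell and 2 did not pass the test, with a median of -1.40. At an unadjusted p under 0.05, 0 were higher by edgeR, DESeq2 or limma-voom. Tbk1, a kinase that is also recruited to linear chains, averaged 2.83 ± 0.85 CPM in treated cells and 42.5 ± 3.61 CPM in control cells, a log2 fold change of -3.90 ± 0.25. Map3k14, the kinase that activates IKKα in the non-canonical pathway, averaged 3.37 ± 1.25 CPM in treated cells and 23.2 ± 0.055 CPM in control cells, a log2 fold change of -2.77 ± 0.27. With ribosomal protein genes held equal, each gene named above as rising in the 5 lists was lower in treated cells, whereas each gene named as falling was lower under all 5 scalings. The named falls had edgeR adjusted p-values of 9.39e-04 (Traf5) or smaller.

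**Figure D5:**
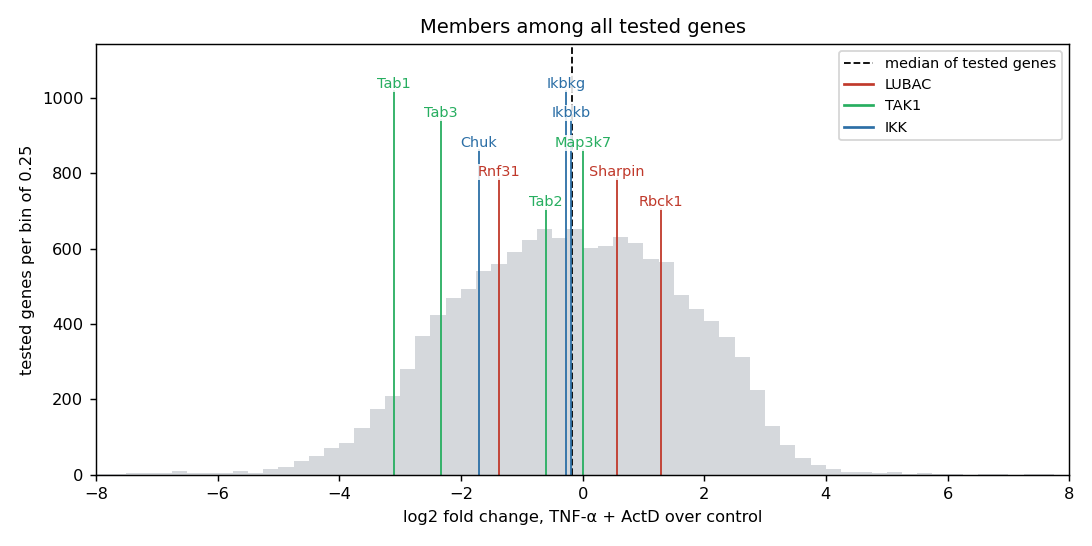
Distribution of log2 fold changes (treated over control, TMM) of all 13290 tested genes, drawn between -8 and 8, with the 10 members marked by vertical lines. The members spread from Tab1 at -3.10 to Rbck1 at 1.30, and 7 of the 10 lie below the median of all genes, -0.18; 4 do so with the length trend removed (either length), 4 of 9 with the stricter filter and 5 in a fit of protein-coding genes.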

How the data were processed

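RNA-seq libraries of 6 L929 samples were used, 3 per group, with control columns matched by genotype name and number. The authors deposited whole-number counts per gene with gene lengths and coordinates, and a table of FPKM; the submitters' processing notes list DESeq2 1.24.0, HISAT2 2.1.0 and RSEM 1.3.1, and as genome builds GRCm38 and mm10, with no roles. The deposited FPKM equal count per length times 1 constant per library.

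Counts were filtered with filterByExpr, TMM-scaled and fitted with edgeR 4.0.16 (robust quasi-likelihood, Benjamini-Hochberg threshold 0.05 over 13290 genes). The fit was tested on simulated data with 200 changed genes. That is far fewer than were called here, so the simulation does not bear on the choice of scaling. Within-complex log2 ratios used a prior count of 0.5 and exact permutation tests. DESeq2 1.42.0, limma 3.58.1, other scalings, filters and length offsets were alternatives. Intervals cover the spread between libraries only. The members and lists were chosen with earlier results of these data known. In each of 5 lists, the text names up to 2 called rises and 2 called falls of greatest size whose mean reached 1 CPM, with any listed gene that could not be tested.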

Additional observations from a re-analysis of the deposited data

How the results depend on the processing

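Rnf31, Tab1 and Chuk stayed lower and called under every setting in which they were tested, and DESeq2, limma-voom, median-ratio and upper-quartile factors and the fit of protein-coding genes gave the 2 and 5 member calls. Library size alone called 0 members higher (1 at an unadjusted p under 0.05, edgeR) and 9 lower, beside 2276 genes higher and 7924 lower of 13290. Sharpin was then -0.48, Map3k7 -1.02, Ube2n -0.61 and Mapk9 -0.45. In the lists library size alone called 0 linear ubiquitin, 0 receptor-proximal, 0 TAK1 target and 1 IKK partner genes higher, and 8 IKK partner genes lower. With ribosomal protein genes held equal, 0 members (0 at an unadjusted p under 0.05, edgeR) and 241 genes were higher and 10 members and 10955 genes lower; Rbck1 was -1.10, Sharpin -1.84, Map3k7 -2.36, Ube2l3 -1.27, Ube2n -1.97, Mapk9 -1.81, Cdc37 -0.77 and Nfkbib -1.17, 0 linear ubiquitin, 0 receptor-proximal, 0 TAK1 target and 0 IKK partner genes were higher, and 10 receptor-proximal and 12 IKK partner genes lower. Without the count filter 1 member, 0 receptor-proximal and 0 TAK1 target genes were higher, beside 4816 of 24708 genes. Map3k7 was -0.15 there and -0.0076 with limma-voom. With the length trend removed 5 members were higher and 4 lower, beside 4942 higher and 4558 lower of 13290 tested genes. Tab2 was then 0.16, Ikbkb 1.33 and Ikbkg 0.70. In the lists 3 linear ubiquitin, 2 receptor-proximal and 1 IKK-related genes were higher and 6 TAK1 target genes lower. The same on mRNA length, chosen after seeing the data, gave 5 members higher and 3 lower, beside 4343 higher and 4067 lower of 11444 tested genes. Tab2 was then 0.37 (called higher), Ikbkb 0.57 and Ikbkg 1.09, and Tab3 lost its call at -1.05. In the lists 2 linear ubiquitin, 3 receptor-proximal, 2 TAK1 target and 2 IKK-related genes were higher on that length. With the deposited-length trend removed, also added later for the ratios, the log2 differences were 0.95 (Rbck1 to Sharpin), 3.80 (Map3k7 to Tab1), -3.16 (Tab1 to Tab2), -2.45 (Chuk to Ikbkb) and 0.63 (Ikbkb to Ikbkg), and on mRNA length 1.24 (Rbck1 to Sharpin), -0.87 (Rnf31 to Sharpin), 3.87 (Map3k7 to Tab1), 0.88 (Map3k7 to Tab2), -2.99 (Tab1 to Tab2), -2.08 (Chuk to Ikbkg) and -0.52 (Ikbkb to Ikbkg). The cause of these changes was not tested.

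Leaving out 1 library gave 1 to 2 members higher and 5 to 6 lower, 4125 to 4564 genes higher, 0 to 1 receptor-proximal genes higher and 3 to 5 IKK partner genes higher. Map3k7 then lay between -0.23 and 0.030, the Tab1 to Tab3 ratio difference between -1.25 and 0.057, and that of Ikbkb to Ikbkg between -0.035 and 0.29. Tab3 was not tested under the stricter filter or in the FPKM fits.

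A replicate block called 2 members higher and 5 lower and 4450 genes higher, with Map3k7 at -0.012, and changed no member's call. Deviations of same-numbered libraries correlated at 0.29, -0.23 and 0.081, and not every library correlated best with its own number, so the numbers were not treated as pairs. Depth limits Tab3 most, with 57 counts in treated and 584 in control libraries.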
